A study of Mus musculus with 12 samples.

Results

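The 37 genes described here encode the enzymes, membrane proteins and regulators of the lysosome. They were chosen by name, with earlier results of these data known. They comprise 11 cathepsins, *Tpp1*, 8 glycosidases, 5 genes of lysosomal lipid breakdown, the cholesterol exporters *Npc1* and *Npc2*, 8 membrane proteins, *Tfeb* and *Grn*. All 37 were found among the 27179 mouse genes of the count table, and all 37 were among the 15502 genes with enough counts to test. Their levels were measured by poly(A) RNA-seq in 12 tibialis anterior (TA) muscles, the muscle at the front of the lower leg, of wild-type male C57BL/6N mice that arrived at 6 to 8 weeks of age and were used within 2 weeks. In each of 6 mice, 1 TA received 10 μg of empty plasmid by electroporation (Control) and the TA of the other leg received 10 μg of a plasmid from which the CMV promoter, active in many cell types, drives the full-length human long noncoding RNA *FRAIL1* (*FRAIL1* muscles). Both legs thus underwent hyaluronidase injection, plasmid injection and electric pulses, and both were collected on day 7. Samples are whole muscles, so that transfected and untransfected fibers and all other cells of the tissue were read together. Only mouse genes were analysed here, and the level of the human transcript was not.

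The lysosome is the acidic compartment in which cells break down proteins, sugars, lipids and whole organelles delivered by autophagy and endocytosis. Its soluble hydrolases are carried there mainly by mannose 6-phosphate receptors, its membrane is covered by heavily glycosylated proteins such as LAMP1 and LAMP2, and the V-ATPase proton pump keeps its interior acidic. In skeletal muscle it is a route of protein loss during atrophy and the site of glycogen breakdown by acid α-glucosidase, and loss of that enzyme or of LAMP2 causes the myopathies Pompe disease and Danon disease. Macrophages are especially rich in lysosomal enzymes.

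Each library held between 44848322 and 60527385 counts. Markers of muscle fibers were abundant in both groups, with *Acta1*, skeletal actin, at 34536 CPM, reads scaled to a common library size, in Control and 31415 CPM in *FRAIL1* muscles. *FRAIL1* muscle 5 stood apart from the others, with a score of 59.5 on the first principal component against -5.92 to 25.8 in the other *FRAIL1* muscles and -25.9 to -11.0 in Control muscles, and its mitochondrial transcripts made up the lowest share of counts, 6.58%. Results are therefore given with and without it where they moved. The muscle numbers 1 to 6 were taken as the mice, and fits with the mouse as a block are given where they changed a call.

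*Ctsb*, *Ctsh*, *Ctsk*, *Ctsl*, *Ctsz*, *Glb1*, *Hexa*, *Man2b1*, *Lamp2*, *Scarb2* and *Cd63* rose in *FRAIL1* muscles and none of the 37 genes fell, at an FDR under 0.05 (edgeR, quasi-likelihood fit, p-values adjusted by Benjamini-Hochberg over all genes tested). These 11 genes are 29.7% of the 37, whereas 6.28% of all genes tested passed the test, 4.43% higher and 1.85% lower. At an unadjusted p under 0.05 in edgeR, 21 of the 37 genes were higher, these 11 among them, and 3 were lower. Over all 37 genes DESeq2 called 17 higher (8.6% of all genes it gave an adjusted p) and 1 lower, *Ctso* (951 of all genes were lower). Limma called 15 of the 37 higher (6.41% of all genes) and none lower. With the mouse as a block, 19 genes rose (51.4%, against 7.48% of all genes tested) and 1 fell, *Npc1* (6.62% of all genes fell), and all of the 11 genes above were among the 19. Without *FRAIL1* muscle 5, 8 of the 37 genes rose (21.6%, against 3.69% of all genes). Without both muscles numbered 5, the number was 5 (13.5%, against 3.09%).

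The median log2 fold change of the 37 genes was 0.31, compared with 0.0096 for all genes tested, and 29 of the 37 (78.4%) lay above 0, compared with 51.6% of all genes. It was 0.27 without *FRAIL1* muscle 5 and 0.26 without both muscles numbered 5. In 6 of 6 mice the *FRAIL1* muscle was above the Control muscle for 15 of the 37 genes (40.5%, against 11.5% of all genes). For *Ctsb*, *Ctsk*, *Ctsl*, *Lamp2* and *Scarb2*, every *FRAIL1* muscle lay above every Control muscle (13.5% of the genes, against 3.12% of all genes), and for none of the 37 did every *FRAIL1* muscle lie below (1.77% of all genes). Summed over the 37 genes, the level was 4684 to 5136 CPM in Control muscles and 4900 to 6525 CPM in *FRAIL1* muscles, with a higher sum after *FRAIL1* in 6 of 6 mice, although the groups overlapped. In whole muscle, fewer cells of a type and less RNA per cell cannot be told apart, and neither can more cells and more RNA per cell.

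**Figure D1:**
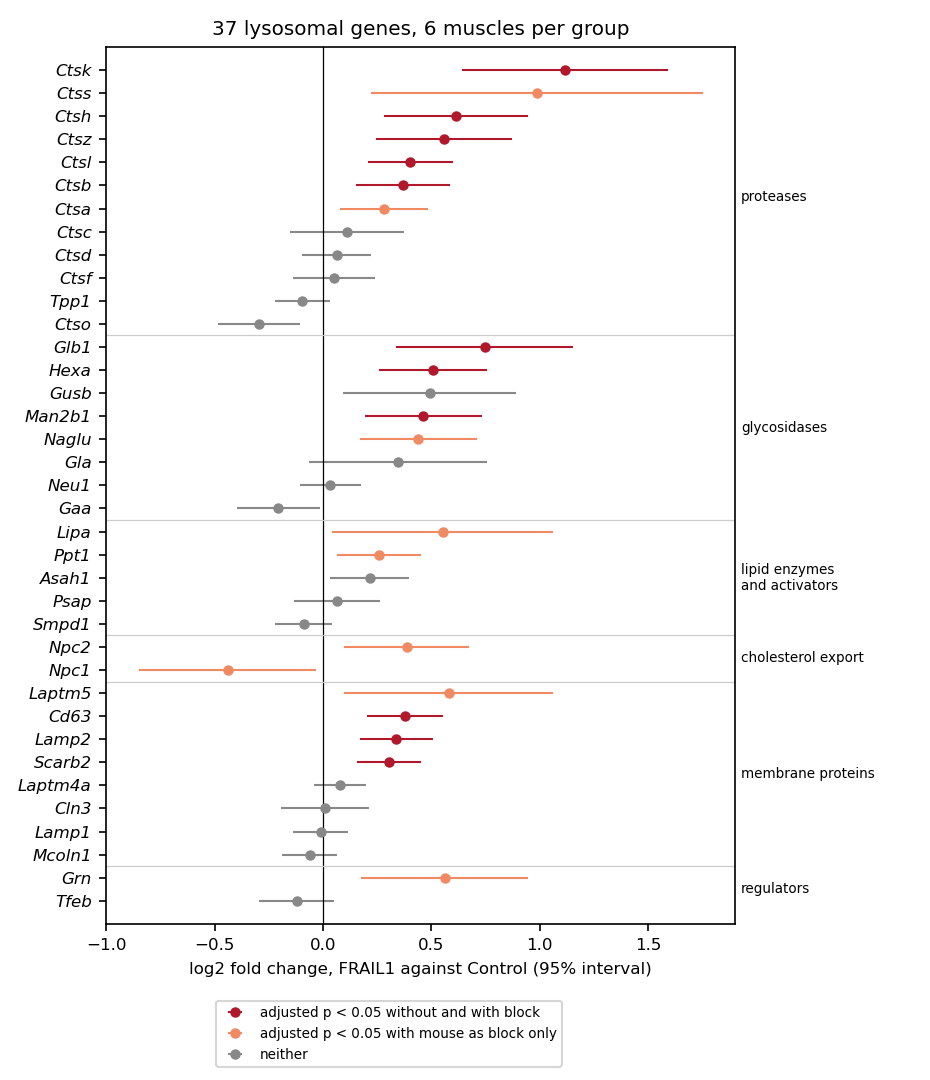
Log2 fold change of each of the 37 genes, *FRAIL1* against Control muscles (6 per group), with the 95% interval of the fit without a block, grouped by role. Red points passed an FDR of 0.05 without and with the mouse as a block (11 genes), orange points in edgeR with the block but not without it (9 genes), and grey points in neither of these edgeR fits. The largest value is that of *Ctsk*, 1.12, and the lowest that of *Npc1*, -0.44.

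The number of genes that passed depended on single muscles, and so did the share of all genes tested that passed, given here in parentheses. It was 4 without Control muscle 1 (2.56%), 2 (2.65%) or 4 (3.2%) or without *FRAIL1* muscle 1 (2.33%). It was 5 without Control muscle 3 (2.58%) or *FRAIL1* muscle 4 (3.16%), 6 without Control muscle 6 (3.43%), and 7 without Control muscle 5 (3.37%) or *FRAIL1* muscle 6 (3.85%). Without *FRAIL1* muscle 3 it was 19, all higher (13.5%). Without *FRAIL1* muscle 2 it was 16 (10.1%), of which 14 were higher and 2 lower, *Ctso* (log2 fold change -0.34, edgeR FDR 0.0327) and *Npc1* (-0.58, edgeR FDR 0.0485), so that the absence of lower genes holds for the edgeR fit of all 12 muscles without the block. *Ctsl* and *Cd63* passed in each of the 24 alternative analyses, and *Ctsk* in each of the 12 that left out 1 muscle.

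The genes differed widely in level. Per kilobase of exon, *Psap* was the most abundant of the 37 genes in Control muscles at 461 ± 27.7 CPM per kb (SD, n = 6), followed by *Ctsd* at 300.4 ± 16.2, *Laptm4a* at 242 ± 7.49, *Lamp1* at 154 ± 5.30 and *Ctsb* at 107 ± 3.24 CPM per kb. These 5 genes were separated from one another by more than the SD of either neighbour. *Cd63* at 71.8 ± 4.91 and *Gaa* at 70.7 ± 3.17 CPM per kb came next and did not differ beyond their spread. The lowest were *Gla* at 1.93 ± 0.383 and *Glb1* at 1.80 ± 0.242 CPM per kb, also within their spread. The exon length used pools the annotated coding transcripts of a gene and may exceed that of the transcript expressed in muscle. The SD does not cover this, so the order between genes is approximate. Of the 5 most abundant genes only *Ctsb* passed the test for a difference between the groups.

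**Figure D2:**
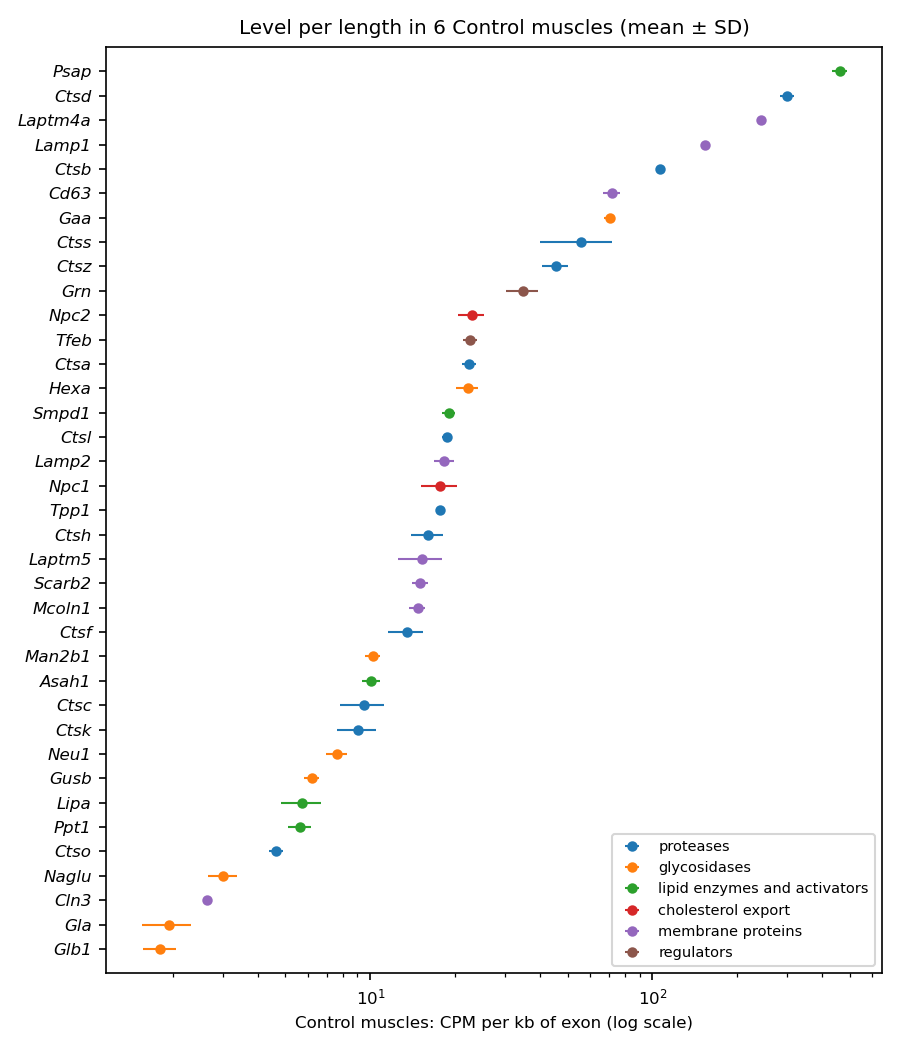
Mean level of each gene in the 6 Control muscles in CPM per kilobase of exon (log axis), with the SD as bars and the role as colour. *Psap*, *Ctsd*, *Laptm4a*, *Lamp1* and *Ctsb* lie above 100 CPM per kb, and *Glb1* and *Gla* are the lowest.

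*Tfeb* encodes the transcription factor that switches on many lysosomal and autophagy genes by binding a short element with the core CACGTG in their promoters. Its level ranged from 87.1 to 100.4 CPM (median 89.1) in Control muscles and from 62.1 to 91.3 CPM (median 86.6) in *FRAIL1* muscles. The groups overlapped, and the log2 fold change of -0.12 (95% interval -0.30 to 0.05) did not pass the test (edgeR FDR 0.346). *FRAIL1* muscle 5 was the lowest, and without it the log2 fold change was -0.05. Activity of this factor is controlled largely by its movement into the nucleus, which RNA levels do not measure. Its relatives and regulators, a list of 7 genes with *Tfe3*, *Mitf*, *Tfec*, *Zkscan3*, *Flcn*, *Fnip1* and *Fnip2*, had a median log2 fold change of -0.03, and edgeR called none without the block. At an unadjusted p under 0.05, 1 of these genes was higher, and DESeq2 and limma each called 1 higher.

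Promoter sequences, from 250 bases before to 50 bases after the annotated start, were found in RefSeq (GRCm38.p6) for 33 of the 37 genes. The letters TCACGTG, on either strand, stood in a promoter of 9 of these 33 genes (27.3%). The share was 6.57% for the 11778 genes tested that had a promoter sequence. Counted by promoter rather than by gene, it was 3.77% of all 32851 promoters. The 9 genes were *Ctsa*, *Ctsd*, *Cln3*, *Mcoln1*, *Lamp1*, *Glb1*, *Naglu*, *Gaa* and *Gla*. Among the 9 genes with a promoter that rose without the block, 1 held these letters, *Glb1*, and among the other 24 they stood in 8. The shorter CACGTG reads the same on both strands and is contained in the longer motif. It was present in a promoter of 11 of the 33 genes and of 11.3% of the genes tested. Counted by promoter, it stood in 7.15% of all promoters. Windows of *Glb1*, *Naglu*, *Lamp1* and *Mcoln1*, each from 110 bases before to 10 bases after the start, are printed 5′ to 3′ on the strand of the gene with each CACGTG in capitals. *Glb1* is shown as the gene that rose in the fits without and with the block, *Naglu* as a gene that rose in edgeR with the block but not without it, and *Lamp1* and *Mcoln1* as promoters with several matches whose genes passed in neither edgeR fit.
Glb1 (chr9:114400968-114401087, plus strand): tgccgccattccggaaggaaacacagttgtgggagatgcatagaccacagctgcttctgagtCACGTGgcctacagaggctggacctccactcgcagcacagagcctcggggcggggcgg
Naglu (chr11:101069984-101070103, plus strand): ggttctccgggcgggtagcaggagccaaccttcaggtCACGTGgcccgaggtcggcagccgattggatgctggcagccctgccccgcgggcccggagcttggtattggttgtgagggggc
Lamp1 (chr8:13159051-13159170, plus strand): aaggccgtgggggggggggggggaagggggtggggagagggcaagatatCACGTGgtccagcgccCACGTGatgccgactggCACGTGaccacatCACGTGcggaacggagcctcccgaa
Mcoln1 (chr8:3500409-3500528, plus strand): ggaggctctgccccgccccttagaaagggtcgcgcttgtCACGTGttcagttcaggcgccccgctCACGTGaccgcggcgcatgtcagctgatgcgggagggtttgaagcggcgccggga

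The window of *Lamp1* holds 4 matches and that of *Mcoln1* 2, against 1 each for *Glb1* and *Naglu*. Because *Lamp1* and *Mcoln1* were printed for their several matches, this contrast does not compare genes that rose with genes that did not. The promoter of *Ctsa*, which rose in edgeR with the block, also held more than 1 match, at positions -12 and 6 from the start. A match describes letters in the promoter and does not show that a factor was bound in these muscles.

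*Grn* encodes progranulin, a glycoprotein of the secretory pathway and lysosome that is processed into granulins. It ranged from 65.4 to 92.9 CPM (median 83.8) in Control and from 71.9 to 158 CPM (median 125) in *FRAIL1* muscles, and was higher after *FRAIL1* in 5 of 6 mice. Of the *FRAIL1* muscles, 4 lay above all Control muscles. The log2 fold change was 0.56 (SE 0.178), with an edgeR FDR of 0.0717 that fell to 0.0220 with the mouse as a block. Without the block it passed in DESeq2 (adjusted p 0.0173), in limma (0.0311) and in edgeR without *FRAIL1* muscle 2 or 3 (FDR 0.0442 and 0.0142).

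Among the proteases, *Ctsk* and *Ctss* had the highest log2 fold changes of all 37 genes. Of the 9 cysteine cathepsins, the papain-like proteases of the lysosome, *Ctsb*, *Ctsh*, *Ctsk*, *Ctsl* and *Ctsz* rose, and *Ctss* rose in edgeR with the block but not without it. Their summed level was 839 to 926 CPM in Control and 937 to 1627 CPM in *FRAIL1* muscles, so that the groups did not overlap. The serine carboxypeptidase *Ctsa* likewise rose in edgeR with the block, and neither the aspartic protease *Ctsd* nor the tripeptidyl peptidase *Tpp1* passed in either edgeR fit.

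*Ctsk* (chromosome 3, 95499210 to 95509387 in GRCm38, as for all positions here) encodes cathepsin K, which cleaves collagen and is best known from osteoclasts. It ranged from 11.7 to 17.4 CPM (median 13.3) in Control and from 19.2 to 44.5 CPM (median 26.4) in *FRAIL1* muscles. The groups did not overlap, and *FRAIL1* muscles 1, 5 and 4 were the highest. The mean rose from 13.7 ± 2.17 to 29.7 ± 11.03 CPM (SD, n = 6 each), a log2 fold change of 1.12 (SE 0.219, edgeR FDR 0.0167). It was 0.998 without *FRAIL1* muscle 5 (edgeR FDR 0.0274) and 0.96 without both muscles numbered 5 (edgeR FDR 0.0548). *Ctss*, the next of the cathepsin genes on chromosome 3 (95526786 to 95556405), encodes cathepsin S, the protease that trims the invariant chain of MHC class II in antigen-presenting cells. It ranged from 49.9 to 102 CPM (median 78.0) in Control and from 58.0 to 258 CPM (median 129) in *FRAIL1* muscles. It had the widest spread among *FRAIL1* muscles of the 37 genes, a coefficient of variation of 54.3%, and it was higher in 6 of 6 mice (log2 fold change 0.99, SE 0.350, edgeR FDR 0.0993 without and 0.0377 with the block). Without the block *Ctss* passed in DESeq2 (adjusted p 0.0470), in limma (0.0395) and in edgeR without *FRAIL1* muscle 3 (FDR 0.0337).

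*Ctsl* (chromosome 13, 64361890 to 64370772) and *Ctsb* (chromosome 14, 63122462 to 63145923) encode cathepsins L and B, broad endopeptidases found in most tissues. *Ctsl* ranged from 111 to 125 CPM (median 114) in Control and from 126 to 199 CPM (median 144) in *FRAIL1* muscles, and the log2 fold change was 0.40 (SE 0.0913, edgeR FDR 0.0220). The groups were separated by a narrow gap, Control muscle 1 being the highest of its group. *Ctsb* ranged from 494 to 536 CPM (median 502) in Control and from 547 to 855 CPM (median 602) in *FRAIL1* muscles, and the log2 fold change was 0.37 (SE 0.101, edgeR FDR 0.0458). The Control muscles were tightly grouped, with a coefficient of variation of 3.03%, whereas that of the *FRAIL1* muscles was 19.0%, with muscles 1 and 4 the highest. *Ctsb* lost its call without any 1 of the 6 Control muscles, without *FRAIL1* muscle 1 or 4 and without both muscles numbered 5, with an edgeR FDR of at most 0.0923. Of the exon bases of *Ctsl*, 28.2% overlap the genes Gm47123 and Gm49230, and of those of *Ctsb*, 16.3% overlap *Fdft1*. These are shares of bases in GENCODE M21 and not of reads. Whether the overlaps affected the counts is not known, the strand setting of the counting not being stated.

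*Ctsh* (chromosome 9, 90054267 to 90076095) and *Ctsz* (chromosome 2, 174427494 to 174439039) encode an aminopeptidase and a carboxypeptidase of the same family. *Ctsh* ranged from 19.6 to 28.8 CPM (median 27.1) in Control and from 26.5 to 50.9 CPM (median 40.3) in *FRAIL1* muscles, and the log2 fold change was 0.61 (SE 0.154, edgeR FDR 0.0373). *Ctsz* ranged from 54.9 to 74.0 CPM (median 67.6) in Control and from 68.7 to 128 CPM (median 98.3) in *FRAIL1* muscles, and the log2 fold change was 0.56 (SE 0.146, edgeR FDR 0.0421). Both were higher in 6 of 6 mice, and in both the *FRAIL1* muscle 3 was the lowest of its group and within the Control range. Neither call held when 1 muscle was left out, except without *FRAIL1* muscle 2 or 3, and without *FRAIL1* muscle 5 the edgeR FDR was 0.0751 for *Ctsh* and 0.0868 for *Ctsz*. With the block the edgeR FDR was 0.00265 and 0.0116.

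The remaining proteases had log2 fold changes nearer 0. *Ctsa*, whose product also protects β-galactosidase and sialidase 1 in a complex, ranged from 75.6 to 87.4 CPM in Control and from 82.9 to 126 CPM in *FRAIL1* muscles and was higher in 6 of 6 mice (log2 fold change 0.28, SE 0.0958, edgeR FDR 0.0803 without and 0.0361 with the block). Its edgeR FDR without the block was 0.0400 without *FRAIL1* muscle 2 and 0.0410 without *FRAIL1* muscle 3. Of its exon bases, 22.3% overlap *Pltp* and *Neurl2*. *Ctso* was lower in 5 of 6 mice, at 14.9 to 17.2 CPM in Control and 10.6 to 15.1 CPM in *FRAIL1* muscles, and did not pass in edgeR (log2 fold change -0.29, FDR 0.0594, and 0.0530 with the block), though it did in DESeq2 (adjusted p 0.0255, and 0.0272 with the block). *Ctsd*, the most abundant cathepsin per kilobase, stood at 639 ± 34.4 CPM in Control and 668 ± 69.9 CPM in *FRAIL1* muscles (SD, n = 6 each), and its log2 fold change of 0.06 had a 95% interval of -0.10 to 0.22. The groups overlapped widely, and 38.0% of the exon bases of *Ctsd* are shared with the annotated gene Gm49369. *Ctsc*, whose product activates serine proteases of immune cells, *Ctsf* and *Tpp1* had log2 fold changes of 0.11, 0.05 and -0.09, and their edgeR FDR was 0.585, 0.744 and 0.315.

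**Figure D3:**
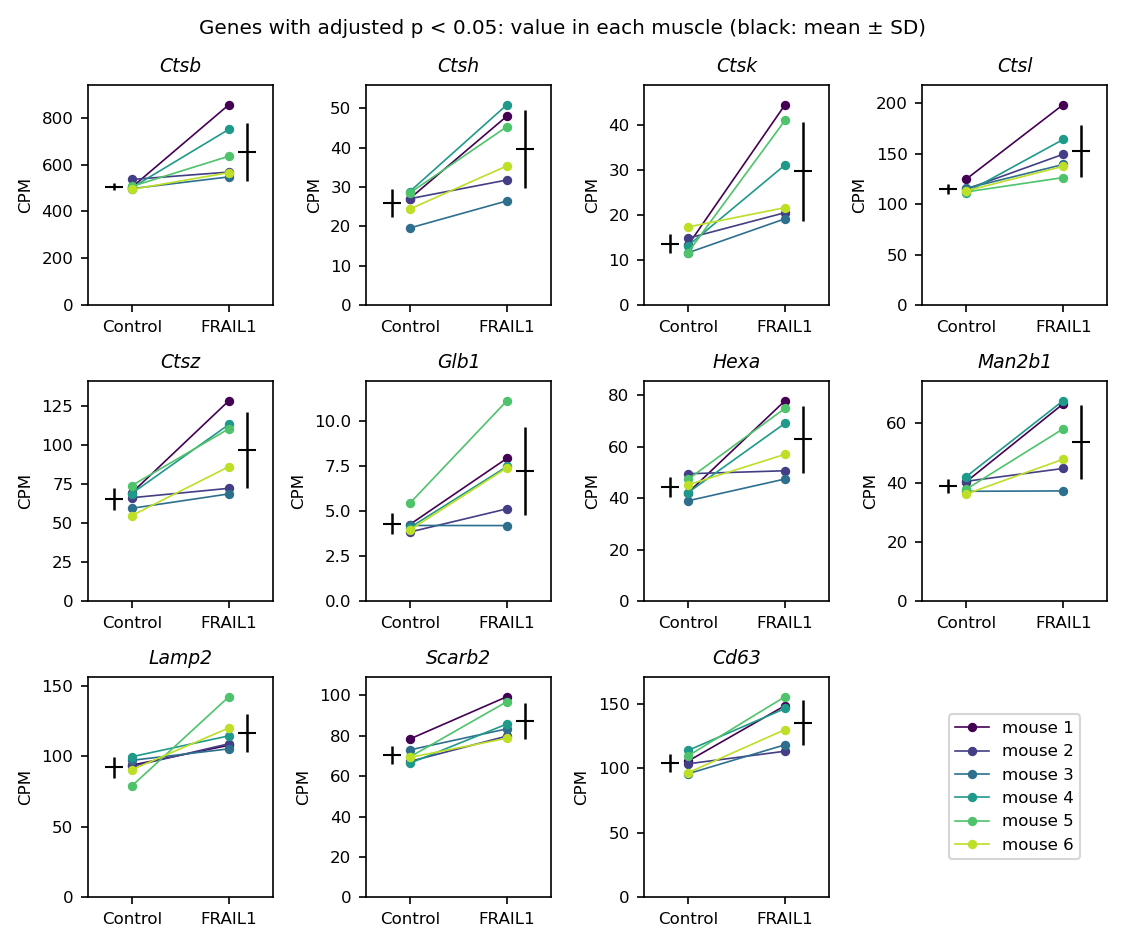
CPM in each muscle for the 11 genes that passed without the block, with lines joining the Control and *FRAIL1* muscles of the same number and the mean ± SD beside them in black (each vertical axis starts at 0). For *Ctsb*, *Ctsk*, *Ctsl*, *Lamp2* and *Scarb2* every *FRAIL1* muscle lies above every Control muscle, and in *Glb1* and *Man2b1* mouse 3 shows almost no difference.

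Among the 8 glycosidases, *Glb1*, *Hexa* and *Man2b1* rose, *Naglu* rose in edgeR with the block but not without it, and *Gusb*, *Gla*, *Neu1* and *Gaa* passed in neither edgeR fit. *Glb1* (chromosome 9, 114401078 to 114474379) encodes β-galactosidase, which removes galactose from GM1 ganglioside and keratan sulfate and whose activity is widely used as a marker of senescent cells. It ranged from 3.86 to 5.45 CPM (median 4.16) in Control and from 4.21 to 11.2 CPM (median 7.47) in *FRAIL1* muscles, and the log2 fold change was 0.75 (SE 0.192, edgeR FDR 0.0362). The highest value of each group came from mouse 5, and mouse 3 was the only one without a higher level in its *FRAIL1* muscle. Leaving out Control muscle 5, *FRAIL1* muscle 2, 3 or 5, or both muscles numbered 5 kept the call, and leaving out any 1 of the other 8 muscles raised the edgeR FDR to at most 0.0787. Of the exon bases of *Glb1*, 6.89% overlap *Tmppe*.

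*Hexa* (chromosome 9, 59539540 to 59565109) encodes the α subunit of β-hexosaminidase, the enzyme of GM2 ganglioside breakdown that is missing in Tay-Sachs disease. It ranged from 39.0 to 49.5 CPM (median 43.6) in Control and from 47.4 to 77.8 CPM (median 63.0) in *FRAIL1* muscles, and the log2 fold change was 0.51 (SE 0.117, edgeR FDR 0.0261). Of the *FRAIL1* muscles, 5 lay above all Control muscles. An overlap with *Tmem202* covers 12.8% of the exon bases of *Hexa*. The call was lost without Control muscle 1, 3 or 4 or *FRAIL1* muscle 1 or 4 (edgeR FDR up to 0.0615), and without both muscles numbered 5 (edgeR FDR 0.0599). *Man2b1* (chromosome 8, 85082730 to 85098739), the lysosomal α-mannosidase, ranged from 36.1 to 41.9 CPM (median 39.0) in Control and from 37.2 to 67.6 CPM (median 53.0) in *FRAIL1* muscles, and the log2 fold change was 0.46 (SE 0.127, edgeR FDR 0.0469). It was higher in 6 of 6 mice, although in mouse 3 the log2 ratio was only 0.005. When 1 muscle was left out the call of *Man2b1* held only without *FRAIL1* muscle 2 or 3, with an edgeR FDR of up to 0.0933. *Naglu*, an enzyme of heparan sulfate breakdown, ranged from 6.25 to 8.62 CPM in Control and from 7.21 to 12.6 CPM in *FRAIL1* muscles (log2 fold change 0.44, SE 0.127, edgeR FDR 0.0511 without and 0.0157 with the block). Without the block *Naglu* passed in DESeq2 (adjusted p 0.0186), in limma (0.0362) and in edgeR without *FRAIL1* muscle 2 or 3 (FDR 0.0436 and 0.00992).

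The other glycosidases spread from higher to lower. *Gusb*, β-glucuronidase, was higher in 6 of 6 mice, at 21.3 to 25.7 CPM in Control and 23.2 to 51.4 CPM in *FRAIL1* muscles, but did not pass in edgeR (log2 fold change 0.49, FDR 0.110, and 0.0635 with the block), whereas in DESeq2 it did (adjusted p 0.0448, and 0.00696 with the block). *Gla*, α-galactosidase A, and *Neu1*, sialidase 1, had log2 fold changes of 0.35 and 0.03, with 95% intervals of -0.06 to 0.75 and -0.10 to 0.17. *Gaa*, the acid α-glucosidase that breaks down glycogen, was the most abundant glycosidase per kilobase. It ranged from 267 to 301 CPM in Control and from 189 to 304 CPM after *FRAIL1*, lower in 5 of 6 mice, with a log2 fold change of -0.21 that did not pass (edgeR FDR 0.156, and 0.104 with the block). The summed level of the 8 glycosidases, 406 to 447 CPM in Control and 405 to 496 CPM in *FRAIL1* muscles, was higher in 4 of 6 mice.

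None of the 5 genes of lipid breakdown passed without the block in edgeR, DESeq2 or limma, although 3 were higher at an unadjusted p under 0.05, and *Lipa* and *Ppt1* rose in edgeR with the block. Without *FRAIL1* muscle 3, *Ppt1* and *Asah1* passed in edgeR without the block (FDR 0.0247 and 0.0328). *Lipa*, the lysosomal acid lipase that frees fatty acids and cholesterol from stored esters, ranged from 14.1 to 21.4 CPM (median 16.7) in Control and from 14.3 to 38.9 CPM (median 23.8) in *FRAIL1* muscles. The *FRAIL1* muscles of mice 1, 5 and 4 were the highest and the other 3 lay within the Control range (log2 fold change 0.55, SE 0.234, edgeR FDR 0.151 without and 0.0383 with the block). *Ppt1*, the thioesterase that removes palmitate from proteins, ranged from 16.7 to 21.7 CPM and from 18.5 to 27.2 CPM in the respective groups (log2 fold change 0.26, edgeR FDR 0.0905 without and 0.0497 with the block). *Psap*, the precursor of the saposins that help sphingolipid hydrolases reach their substrates, was at 1265 ± 76.1 CPM in Control and 1323 ± 206 CPM in *FRAIL1* muscles (SD, n = 6 each) and was higher in 3 of 6 mice. Acid ceramidase, *Asah1*, and acid sphingomyelinase, *Smpd1*, had log2 fold changes of 0.22 and -0.09, with an edgeR FDR of 0.119 and 0.361.

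*Npc1* and *Npc2*, whose products hand cholesterol from one to the other for export from the lysosome, moved in opposite directions with the mouse as a block. *Npc1* ranged from 75.5 to 111 CPM (median 91.6) in Control and from 35.7 to 98.5 CPM (median 69.3) in *FRAIL1* muscles. It was lower in 6 of 6 mice, the only 1 of the 37 genes of which this was true, and *FRAIL1* muscle 5 was the lowest. The log2 fold change was -0.44 (SE 0.188), with an edgeR FDR of 0.152 without and 0.0380 with the block, and -0.31 without *FRAIL1* muscle 5 (edgeR FDR 0.177). *Npc2* ranged from 65.5 to 86.7 CPM (median 74.7) in Control and from 69.0 to 126 CPM (median 96.3) in *FRAIL1* muscles and was higher in 5 of 6 mice (log2 fold change 0.39, SE 0.135, edgeR FDR 0.0890 without and 0.0264 with the block). Without the block *Npc2* passed in DESeq2 (adjusted p 0.0471), in limma (0.0367) and in edgeR without *FRAIL1* muscle 3 (FDR 0.0212). Of the exon bases of *Npc1*, 11.5% overlap other genes. The difference between the changes of the 2 genes was not tested.

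Among the 8 membrane proteins, *Lamp2*, *Scarb2* and *Cd63* rose without and with the block and *Laptm5* rose in edgeR with the block but not without it. *Lamp2* (chromosome X, 38399647 to 38456460) is needed for fusion of autophagosomes with lysosomes, and an isoform of it is the receptor of chaperone-mediated autophagy. Its counts do not separate the isoforms. It ranged from 79.0 to 99.8 CPM (median 93.4) in Control and from 105 to 142 CPM (median 112) in *FRAIL1* muscles, and the log2 fold change was 0.34 (SE 0.0787, edgeR FDR 0.0248). The groups did not overlap. Mouse 5 held both the lowest Control and the highest *FRAIL1* value, and without both muscles of mouse 5 the log2 fold change was 0.23 (edgeR FDR 0.0232). The call was lost without Control muscle 1 or 2, with an edgeR FDR of at most 0.0516. *Lamp1*, its close relative, ranged from 326 to 359 CPM in Control and from 299.9 to 364 CPM in *FRAIL1* muscles, and its log2 fold change of -0.01 had a 95% interval of -0.14 to 0.12. An overlap with *Grtp1* covers 11.2% of the exon bases of *Lamp1*.

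*Scarb2* (chromosome 5, 92441311 to 92505657) encodes LIMP-2, the receptor that carries glucocerebrosidase to the lysosome. It ranged from 66.4 to 78.4 CPM (median 69.4) in Control and from 78.8 to 99.5 CPM (median 84.7) in *FRAIL1* muscles, and the log2 fold change was 0.31 (SE 0.0694, edgeR FDR 0.0220). The groups did not overlap but nearly met, and the call was lost without Control muscle 2 or 4 or *FRAIL1* muscle 1 (edgeR FDR up to 0.0542). *Cd63* (chromosome 10, 128896231 to 128912822) encodes a tetraspanin of late endosomes, lysosomes and exosomes. It ranged from 95.8 to 114 CPM (median 104) in Control and from 113 to 156 CPM (median 138) in *FRAIL1* muscles, and the log2 fold change was 0.38 (SE 0.0822, edgeR FDR 0.0195). *FRAIL1* muscle 2 lay within the Control range and the other 5 above it. A processed pseudogene, *Cd63-ps*, is nearly identical to 11.4% of the *Cd63* transcript.

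*Laptm5*, a lysosomal membrane protein of blood-derived cells, ranged from 30.6 to 46.5 CPM (median 40.8) in Control and from 33.7 to 84.0 CPM (median 55.6) in *FRAIL1* muscles and was higher in 6 of 6 mice (log2 fold change 0.58, SE 0.221, edgeR FDR 0.118 without and 0.0207 with the block). Without the block it passed in DESeq2 (adjusted p 0.0385) and in edgeR without *FRAIL1* muscle 3 (FDR 0.0360). The broadly expressed *Laptm4a*, at 429 ± 13.3 CPM in Control and 454 ± 24.4 CPM in *FRAIL1* muscles (SD, n = 6 each), did not pass in edgeR, and neither did the calcium channel gene *Mcoln1* or the Batten disease gene *Cln3*. Their log2 fold changes were 0.08, -0.06 and 0.01, and none had a 95% interval beyond -0.19 to 0.21. An overlap with *Apobr* covers 13.2% of the exon bases of *Cln3*.

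The size of the difference varied between mice. The median log2 ratio of *FRAIL1* to Control muscle over the 37 genes was 0.47 in mouse 1, 0.36 in mouse 4, 0.33 in mouse 5 and 0.21 in mouse 6, but 0.085 in mouse 2 and 0.030 in mouse 3. Over the 11 genes that passed it was 0.77, 0.69, 0.62 and 0.41 in mice 1, 4, 5 and 6, and 0.23 and 0.21 in mice 2 and 3. These 11 genes were picked for being higher in these same muscles. That their medians lie above 0 and above those of the 37 genes therefore follows largely from the choice. *FRAIL1* muscle 1 held the highest value of its group for 16 of the 37 genes and muscle 3 the lowest for 20. Muscle 5, which stood apart over all genes, was the highest for 5 genes and the lowest for 10, *Tfeb*, *Gaa*, *Npc1* and *Ctsd* among the latter.

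**Figure D4:**
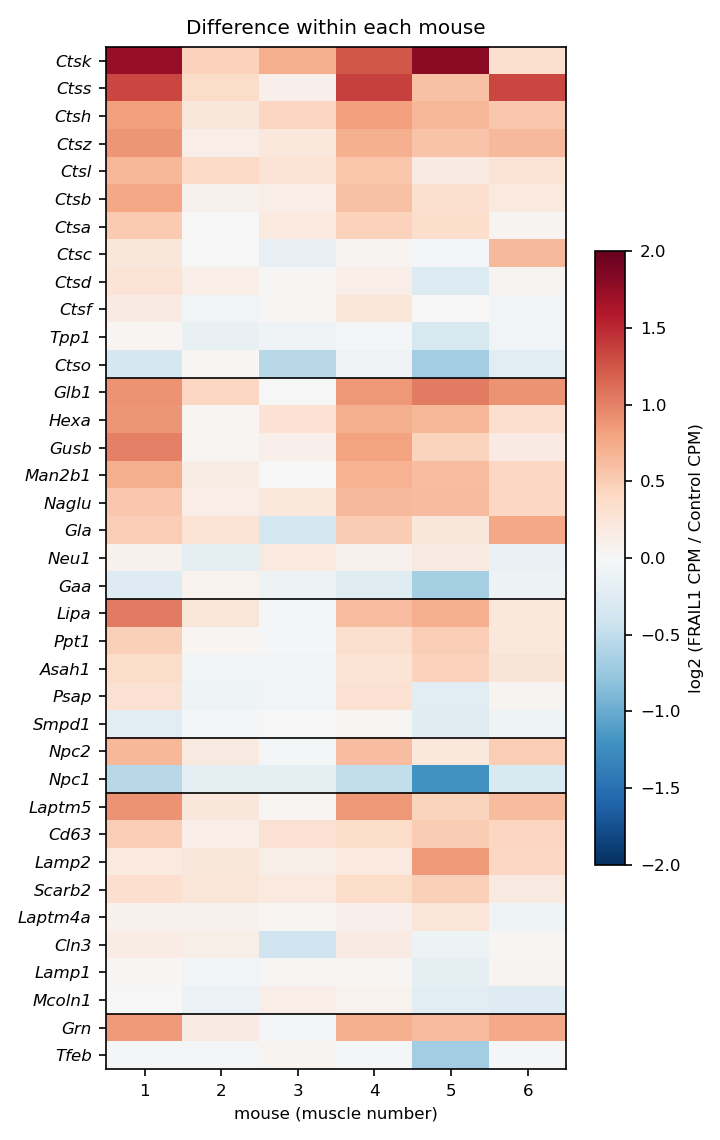
Log2 ratio of *FRAIL1* to Control CPM within each mouse (columns, by muscle number) for the 37 genes (rows, grouped by role), with red for higher and blue for lower in the *FRAIL1* muscle. Mice 1, 4 and 5 show the deepest red, and mice 2 and 3 have medians of 0.085 and 0.030.

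The rest of the lysosomal system was read from lists of 108 other genes, of which 107 were tested. Of these, 13 rose and 1 fell without the block (12.1% higher, against the 4.43% of all genes given above), and their median log2 fold change was 0.07. With the block 20 rose (18.7%, against 7.48% of all genes) and 3 fell (6.62% of all genes fell). Without *FRAIL1* muscle 5, 10 rose (9.35%, against 3.69% of all genes). Without both muscles numbered 5, 6 rose (5.61%, against 3.09%). Among 30 other hydrolases, 6 rose, 1 fell and the median was 0.20. With the block 9 of them rose and 1 fell. Without the block, 3 rose and 1 fell when *FRAIL1* muscle 5 was left out, and 2 rose and 1 fell without both muscles numbered 5. *Lgmn*, the asparaginyl endopeptidase that activates other cathepsins, rose from 81.9 ± 10.2 to 140.5 ± 37.6 CPM (SD, n = 6 each), a log2 fold change of 0.78 (SE 0.160, edgeR FDR 0.0186). *Dnase2a*, the acid DNase, and *Scpep1*, a serine carboxypeptidase, rose by log2 fold changes of 0.64 and 0.44 (edgeR FDR 0.0217 and 0.0262). *Hgsnat*, an enzyme of heparan sulfate breakdown that sits in the lysosomal membrane, fell by 0.30 on the log2 scale (edgeR FDR 0.0220) and was lower in 6 of 6 mice. When 1 muscle was left out *Lgmn* kept its call, *Dnase2a* lost it without Control muscle 3 or *FRAIL1* muscle 1, *Hgsnat* without Control muscle 1, and *Scpep1* without Control muscle 1, 3 or 6 or *FRAIL1* muscle 1 or 4 (edgeR FDR up to 0.0613).

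The other lists had medians nearer 0. Among 20 V-ATPase genes, 3 rose and none fell without the block, while 4 rose and 1 fell with it, at a median of 0.13. Without the block 2 of the 20 were lower at an unadjusted p under 0.05, and DESeq2 called none and limma 1 lower. *Atp6ap2*, *Atp6v1a* and *Atp6v0e*, an accessory subunit, the catalytic subunit and a membrane subunit of the pump, rose by log2 fold changes of 0.35, 0.39 and 0.32 (edgeR FDR 0.0145, 0.0258 and 0.0339). The log2 fold changes of the 20 genes ranged from -0.26 to 2.08, and the gene at 2.08 did not pass without the block. Among 22 genes of sorting to the lysosome, 3 rose, with a median of 0.03. These were *Gga2* and *Ap1s1*, adaptors that load hydrolase receptors into vesicles, and *Igf2r*, the large mannose 6-phosphate receptor, with log2 fold changes of 0.61, 0.35 and 0.25 (edgeR FDR 0.0163, 0.0339 and 0.0356). Among 24 other membrane proteins and transporters tested, *Tpcn2*, an endolysosomal cation channel, rose (log2 fold change 0.63, edgeR FDR 0.0495), and the median was -0.01. Of the 4 cystatins, inhibitors of cysteine cathepsins, edgeR, DESeq2 and limma called none without the block, 1 was higher at an unadjusted p under 0.05, and *Cstb* rose with the block (log2 fold change 0.41, edgeR FDR 0.127 without and 0.0324 with it). Of the 2 edgeR fits, also only in that with the block, the endolysosomal transporters *Slc11a1* and *Slc29a3* rose (log2 fold changes 0.48 and 0.46, edgeR FDR with the block 0.0245 and 0.0186), and the pump subunit *Atp6v0e2* and the tethering protein gene *Vps33a* fell (log2 fold changes -0.26 and -0.25, edgeR FDR with the block 0.0227 and 0.0368). *Gga2* and *Atp6ap2* passed without any 1 muscle. *Atp6v1a* lost its call without Control muscle 2, 3 or 5 or *FRAIL1* muscle 1 or 4, and *Atp6v0e*, *Ap1s1*, *Igf2r* and *Tpcn2* lost theirs without any 1 Control muscle or without *FRAIL1* muscle 1 or 4 (*Tpcn2* also without muscle 5), with an edgeR FDR of at most 0.0945.

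Markers of other cell types moved in the same muscles. Of 17 macrophage markers, 16 lay above 0 with a median log2 fold change of 0.67, and edgeR called 1 (*Ms4a7*) without the block and 10 with it. Without the block DESeq2 called 8 and limma 6, and 12 had an unadjusted p under 0.05 in edgeR, all higher. Their summed level was 340 to 557 CPM in Control and 419 to 1087 CPM in *FRAIL1* muscles. None of the 17 was at 0, and *Adgre1*, which encodes the macrophage protein F4/80, was at 20.96 ± 4.53 CPM in Control and 33.8 ± 9.68 CPM in *FRAIL1* muscles (SD, n = 6 each). Within mice, the median log2 ratio of the macrophage markers was 0.88, 0.86, 0.55 and 0.94 in mice 1, 4, 5 and 6. In mice 2 and 3 it was 0.19 and 0.084. Mice 2 and 3 also had the lowest medians for the 37 lysosomal genes and for markers of satellite cells and regenerating fibers (0.60 and 0.65). The fibroblast markers were lowest in mice 2 and 6 (0.054 and 0.16). Mouse 6 had the highest macrophage median, whereas its median over the 37 lysosomal genes was 0.21.

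Of 10 fibroblast markers, 9 lay above 0 with a median of 0.58 (0.39 without *FRAIL1* muscle 5), and in edgeR 1 (*Col1a2*) passed without the block but not with it (FDR 0.0472 and 0.0642). Without the block DESeq2 called 5 and limma 4, and 6 had an unadjusted p under 0.05 in edgeR, all higher. Their sum was 1253 to 2416 CPM in Control and 2494 to 6295 CPM in *FRAIL1* muscles, which did not overlap, the highest value being that of muscle 5. All 6 markers of satellite cells and regenerating fibers lay above 0 with a median of 1.09 (0.81 without *FRAIL1* muscle 5), and *Myog*, *Myh3* and *Myh8* passed in edgeR without the block and all 6 with it (6 in DESeq2 and 3 in limma without the block). Their sum was 165 to 212 CPM in Control and 320 to 1531 CPM in *FRAIL1* muscles. Of 8 myofiber markers, 7 lay below 0, with a median of -0.23 (-0.13 without *FRAIL1* muscle 5), and *Ckm* fell in edgeR (3 fell in DESeq2 and 3 in limma). Of 7 endothelial markers all lay below 0 and *Tek* fell in edgeR (2 fell in DESeq2 and 2 in limma). In edgeR with the block, 2 myofiber and 3 endothelial markers fell. The 5 Schwann cell and 4 smooth muscle and pericyte markers had medians of -0.26 and -0.27, and edgeR called none without the block. At an unadjusted p under 0.05, 1 Schwann cell marker was lower, and 1 smooth muscle and pericyte marker was higher and 2 were lower. DESeq2 called 1 Schwann cell marker lower and no other of these 9, and limma called none. With the block edgeR called 1 smooth muscle and pericyte marker lower and no Schwann cell marker. Neutrophil and lymphocyte markers were at or near the lower end of detection, with summed levels of 2.11 to 9.30 CPM and 8.10 to 18.3 CPM over all 12 muscles, and edgeR, DESeq2 and limma called none without the block. Only 2 of the 6 neutrophil and 7 of the 8 lymphocyte markers had enough counts to test. None of those tested had an unadjusted p under 0.05 in edgeR without the block. With the block edgeR called 1 lymphocyte marker higher. The part of these cell types in the levels of the lysosomal genes was not tested.

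**Figure D5:**
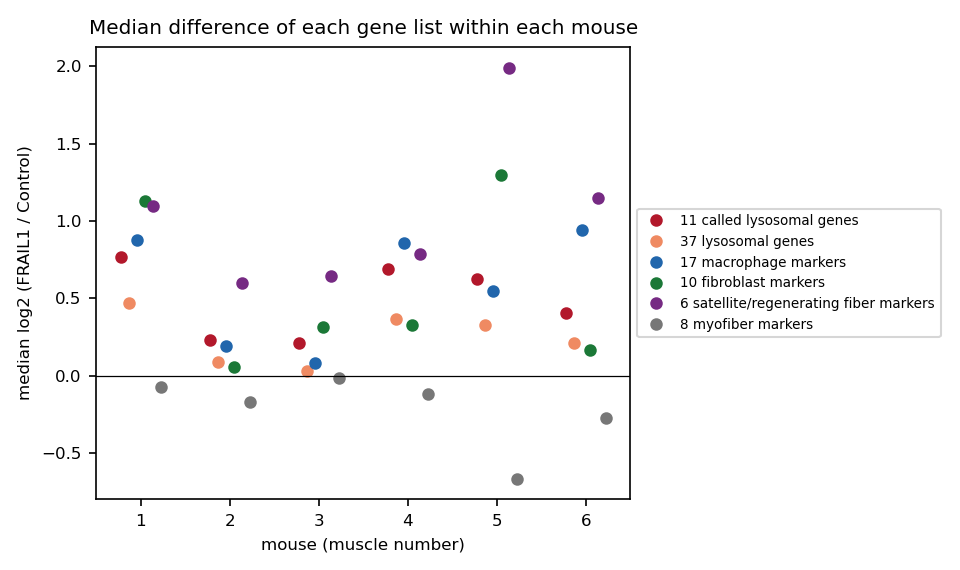
Median log2 ratio of *FRAIL1* to Control muscle within each mouse for the 37 lysosomal genes, the 11 of them that passed, and 4 lists of cell type markers. The 11 genes were picked by the test on these same muscles, so that their higher medians follow largely from the choice. In mice 2 and 3 the lysosomal genes and the macrophage markers all have medians of 0.23 or less. The satellite cell and regenerating fiber markers are also lowest in these mice, at 0.60 and 0.65. In mouse 5 the satellite cell and regenerating fiber markers reach 1.99 and the myofiber markers -0.67.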

How the data were processed

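Poly(A) RNA-seq counts of 12 TA muscles were analysed, 6 Control and 6 *FRAIL1* muscles. The deposited values are whole-number counts per mouse gene, without normalization. Per the labels and methods, the authors trimmed reads with Trimmomatic, aligned them with STAR (2.7.8a) to mm10 and counted those mapping uniquely to annotated genes with featureCounts (2.0.1). The strand setting is not given in the sources used here. NCBI Gene IDs were matched to symbols and coordinates in RefSeq GRCm38.p6 for 25275 of 27179 genes, and the others held 0.280% of counts. Exon lengths are the union of the exons of all protein-coding transcripts tagged basic for each gene in GENCODE M21, or of all its transcripts where there were none.

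Genes were filtered with filterByExpr, scaled by TMM and tested with edgeR 4.0.16 (robust quasi-likelihood, Benjamini-Hochberg FDR under 0.05) in R 4.3.3, and the code was tested on simulated data. CPM values use the TMM-scaled library size. The spread between the 6 muscles is the error given, and counting error bears mainly on the lowest genes. No library was a copy of another, the closest libraries of a group having a chi-square of 14.5 times its degrees of freedom.

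Paired legs come from the series design. The labels number the muscles 1 to 6 in both groups without saying that a number is a mouse, and it was taken as such. Deviations from the group means correlated at 0.254, 0.162, 0.282, 0.263, 0.0547 and 0.185 for numbers 1 to 6 (mean 0.200). For muscles of different number the mean was -0.0400. Because deviations cancel out within a group, that value largely follows from the mean of 0.200 and is no separate baseline. The test reported has no block, and the fit with the mouse as a block is an alternative. The others were DESeq2 1.42.0, limma 3.58.1 (voom), other scalings and filters, and muscles left out.

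The genes and lists were chosen with earlier results of these data known. Genes named were all 37, and from each other lysosomal list up to 3 per direction that passed in either fit, by p-value.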

Additional observations from a re-analysis of the deposited data

Results flagged for a closer look

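Each of the 37 genes was examined for a muscle far from the other 5 of its group, by the gap to the nearest muscle as a share of the range of the group. Of 74 groups examined, 6 held such a muscle, and chance gives about 1 in 20. In Control muscles these were *Ctsb* (gap 0.7034 of the range, muscle 2 at 536 CPM against 494 to 507 CPM), *Ctsl* (0.6817, muscle 1 at 125 against 111 to 116 CPM), *Glb1* (0.7386, muscle 5 at 5.45 against 3.86 to 4.27 CPM) and *Tfeb* (0.7688, muscle 5 at 100.4 against 87.1 to 90.2 CPM). In *FRAIL1* muscles these were *Ctsc* (0.665, muscle 3 at 40.1 against 55.2 to 62.8 CPM) and *Tfeb* (0.7821, muscle 5 at 62.1 against 85.0 to 91.3 CPM). For *Tfeb* the highest Control and the lowest *FRAIL1* muscle thus carried the number 5.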

How the results depend on the processing

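Each result was recomputed under 24 alternatives. The 11 genes that rose kept their direction in every one. Of 888 values of single lysosomal genes, 758 kept their direction and side of the threshold, 70 no longer passed, 47 newly passed and 13 changed sign. Without the replicate block 974 genes of all tested and 11 of the 37 passed. With the replicate block these numbers were 2186 and 20, with the DESeq2 Wald test 2232 and 18, with DESeq2 and the replicate block 2898 and 22, and with limma voom 1836 and 15. Leaving out both muscles numbered 5 left 5 of the 37, and adding the replicate block to that gave 2305 genes and 9 of the 37. Leaving out 1 muscle at a time gave 364 to 2110 genes, 4 to 19 of the 37, and a median log2 fold change of 0.26 to 0.34. Other scalings gave 11 of the 37, and no filter 8. The sign changed only for genes near 0. *Lamp1* was at 0.0188 without both muscles numbered 5, with and without the replicate block, at 0.0099 with limma, and from -0.0323 to 0.0227 over the leave-one-out fits. *Cln3* was at -0.0028 with the replicate block, at -0.0094 with DESeq2 and the block, and from -0.0235 to 0.0801 over the leave-one-out fits. Over the leave-one-out fits *Ctsf* ranged from -0.0022 to 0.1171 and *Psap* from -0.0019 to 0.1037. The causes were not tested. The replicate block changed the call of 9 of the 37 genes, given beside their values, and of no other of the 37. Depth limits the lowest genes, such as *Glb1* and *Gla*, more than the others.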
